A study of Homo sapiens with 24 samples.

Results

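SPARC, BEX1 and DECR1 are 3 genes whose RNA was nearly lost in SETD2 knockout cells relative to wild-type cells, and they are described here by name out of 58884 genes listed. They were selected on the difference between wild type (WT) and knockout (KO) in a first table of RNA-seq values, so that difference is given as a description without a test. A second table, with separate libraries, was then used to ask whether putting SETD2 back into KO cells raised the 3 genes. All libraries came from HEK293T, a human embryonic kidney cell line. The first table, labelled batch 1, held 2 libraries of WT cells and 2 of KO cells, both labelled untreated. The second, labelled batch 2, held 2 libraries of untreated KO cells, 2 of KO cells given full-length SETD2 (SETD2 FL) and 2 of KO cells given a C-terminal construct of residues 1404 to 2564 (SETD2 C, labelled N3). According to the study, both alleles of SETD2 are disrupted in the KO cells and the constructs were transfected under a CMV promoter. Whether the KO cells came from 1 clone was not given in the sources used here. No library of KO cells transfected with an empty vector was analysed here. Against untreated KO, the transfection itself and the construct therefore cannot be told apart. The comparison of SETD2 C with SETD2 FL is between cells that were both transfected.

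SETD2 trimethylates lysine 36 of histone H3 along transcribed genes. SPARC (osteonectin) is a secreted glycoprotein of the extracellular matrix that binds calcium and collagen and modulates how cells adhere to their surroundings. BEX1 belongs to a family of small, brain-expressed proteins encoded in a cluster on the X chromosome and acts as a signalling adaptor, among others of a neurotrophin receptor. DECR1 is the mitochondrial dienoyl-CoA reductase, an auxiliary enzyme that lets polyunsaturated fatty acids enter beta-oxidation. The 3 genes lie on separate chromosomes. In GRCh38 with GENCODE 44, SPARC (ENSG00000113140) spans chr5:151661096-151686975 on the minus strand, with 10 exons in its canonical transcript. BEX1 (ENSG00000133169) spans chrX:103062651-103064171 on the minus strand, with 3 exons in its canonical transcript. The position of DECR1 (ENSG00000104325) is given with its neighbours.

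Promoter windows matched for SPARC and BEX1, 2 of the 3 members, and not for DECR1. They are shown for these members, and that of BEX2 because it is the closest relative of BEX1 in the same cluster and was not called between WT and KO. The sequences run from 250 bases before to 50 bases after the annotated start, 5′ to 3′ on the minus strand of GRCh38.p14, and were taken from RefSeq. Capitals mark CG dinucleotides. The windows are chr5:151686866-151687165 for SPARC, chrX:103064122-103064421 for BEX1 and chrX:103310941-103311240 for BEX2.
SPARC: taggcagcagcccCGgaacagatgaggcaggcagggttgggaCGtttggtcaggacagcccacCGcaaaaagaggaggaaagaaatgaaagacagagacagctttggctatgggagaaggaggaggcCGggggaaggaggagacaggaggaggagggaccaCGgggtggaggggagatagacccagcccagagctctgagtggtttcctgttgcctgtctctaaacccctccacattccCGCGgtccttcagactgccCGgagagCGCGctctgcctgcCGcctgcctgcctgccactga
BEX1: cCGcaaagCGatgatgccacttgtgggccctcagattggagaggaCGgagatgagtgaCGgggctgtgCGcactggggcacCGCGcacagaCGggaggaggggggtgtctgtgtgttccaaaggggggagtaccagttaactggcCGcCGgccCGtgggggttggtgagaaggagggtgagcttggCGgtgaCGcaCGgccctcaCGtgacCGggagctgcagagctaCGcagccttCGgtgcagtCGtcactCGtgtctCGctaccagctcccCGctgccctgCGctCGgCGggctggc
BEX2: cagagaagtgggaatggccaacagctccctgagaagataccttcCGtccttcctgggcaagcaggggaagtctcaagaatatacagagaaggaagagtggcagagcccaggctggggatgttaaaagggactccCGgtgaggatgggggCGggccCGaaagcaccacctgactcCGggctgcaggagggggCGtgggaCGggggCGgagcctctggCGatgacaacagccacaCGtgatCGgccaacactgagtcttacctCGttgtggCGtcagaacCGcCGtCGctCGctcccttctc
The SPARC window held 11 CG dinucleotides and was 61.3% G or C. The BEX1 window held 25 and was 67.0% G or C. The BEX2 window held 17 and was 61.3% G or C. Over 35116 windows of the same length the median was 14 CG dinucleotides, with quartiles of 4 and 28. SPARC was therefore below the median and BEX1 and BEX2 were above it, with 45.3%, 68.0% and 54.0% of windows holding fewer. On both strands, TATAAA was in none of the 3 windows and in 11.5% of all windows. GGGCGG occurred 2 times in BEX2, not in the other two, and in 45.0% of all windows. CCAAT occurred 1 time in BEX1, not in the other two, and in 34.6% of all windows. These matches describe the letters in the windows only.

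Values are TPM, the abundance of a transcript relative to all others in a library, which are normalized for transcript length and for the sum over each library but carry no read depth, so no counting error can be given for them. Replicate libraries were not stated to come from separate cultures, so p-values measure only the spread between these libraries, which may be technical. SETD2 RNA itself was examined first as a check of the labels. SETD2 was 12.62 and 14.82 TPM in the WT libraries and 16.19 and 16.31 TPM in the libraries labelled KO, a difference of −0.11 on the log2 scale (SE 0.08, adjusted p = 0.408). SETD2 RNA thus did not set apart the libraries labelled KO, and a value per gene does not show a disrupted coding sequence, so each direction below rests on the labels. In batch 2 SETD2 was 11.99 and 12.15 TPM in KO, 439.26 and 421.96 TPM with SETD2 FL and 1329.05 and 1264.32 TPM with SETD2 C. The libraries labelled with a construct thus had more SETD2 RNA than those labelled KO. Between the constructs, SETD2 RNA was higher with SETD2 C, by 1.46 on the log2 scale (SE 0.06, adjusted p = 7.09e-06). In this comparison the construct's own RNA is counted on the annotated SETD2 gene, whose length differs from that of either construct. The study, by contrast, reports no significant difference between SETD2 FL and SETD2 C mRNA in its RNA-seq. Why the 2 readings differ was not tested.

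SPARC had the largest difference between WT and KO of all 14741 genes tested in batch 1. Its level was 35.77 and 43.53 TPM in the WT libraries and 0.43 and 0.53 TPM in the libraries labelled KO. Its mean was 39.7 ± 5.49 TPM (SD, n = 2) in WT and 0.480 ± 0.0707 TPM (SD, n = 2) in KO. After scaling between libraries the ratio of the means was 89.9, and the difference in log2(scaled TPM + 0.5) was 5.45. The added 0.5 understates the change of low genes, which is why the log2 value is smaller than the ratio implies. In bulk RNA, fewer cells that express a gene and less RNA per cell cannot be told apart.

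BEX1 came next in the ranking. It was 14.58 and 17.06 TPM in WT, against 0.16 TPM in KO 1 and a value listed at 0 in KO 2. The difference was 4.90 on the log2 scale, and no ratio is given because 1 library was listed at 0. DECR1 had rank 3, with 15.43 and 13.88 TPM in WT and 0.16 and 0.51 TPM in KO. Its ratio of scaled means was 48.0, and its difference was 4.30 on the log2 scale. Genes were tested from 0.5 TPM in 2 or more libraries, and without the WT libraries none of the 3 would have been tested. For comparison, 150 genes were called higher in WT than in KO, which is 1.02% of the genes tested, and 50 were called lower (0.339%). A call needed a 2-fold change and an adjusted p no greater than 0.05. The next genes in the ranking were GYPC, a membrane protein of red cells, at 4.13 on the log2 scale and CYBA, a subunit of the NADPH oxidase, at 4.01. The 3 members thus lay at the end of a continuous ranking.

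**Figure D1:**
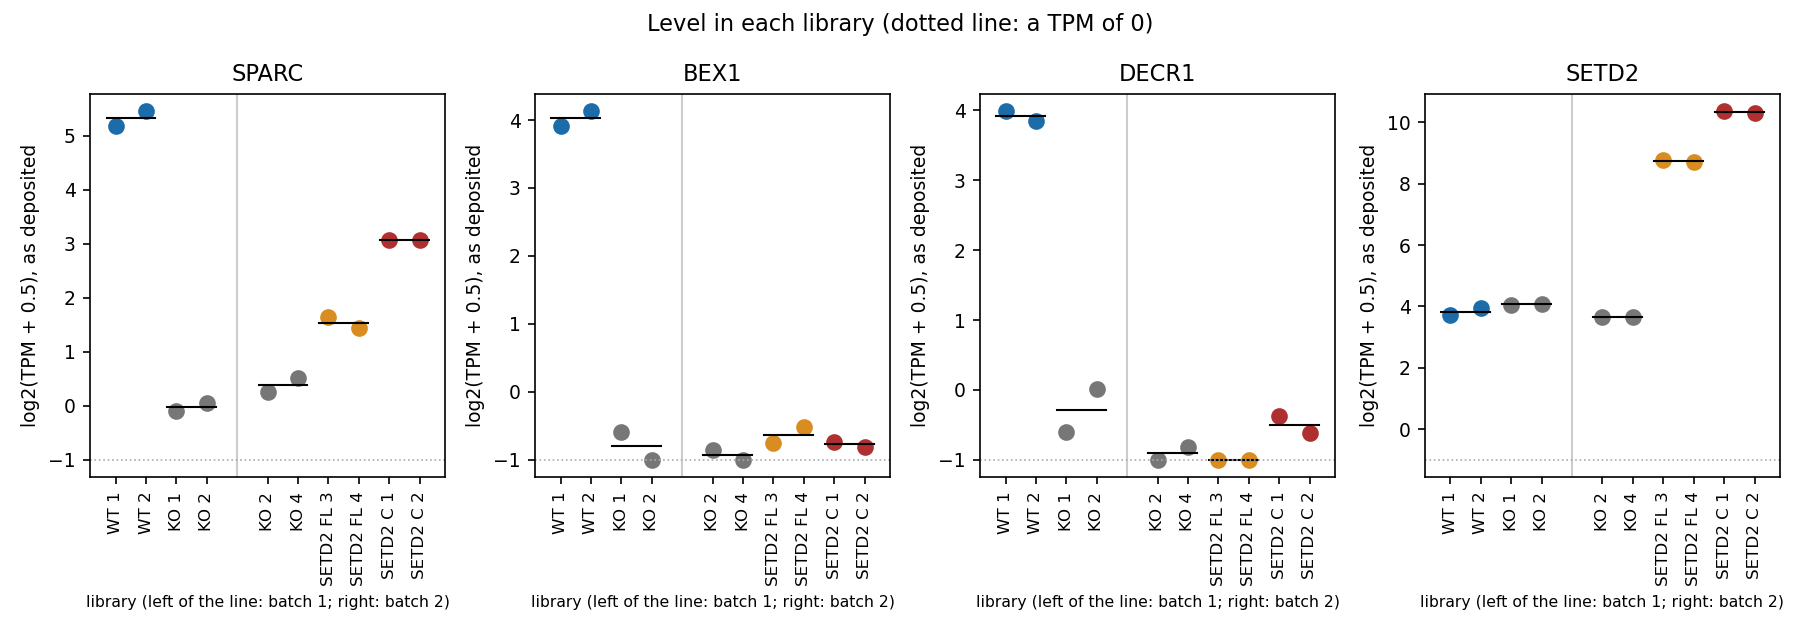
Level of SPARC, BEX1, DECR1 and SETD2 in each of the 10 libraries as log2(TPM + 0.5) from the deposited TPM. Each point is 1 library, black lines are means of the 2 libraries of a group on this scale, the dotted line is a TPM of 0, and the grey line divides the batches, whose tables were normalized separately. SPARC rises from KO to SETD2 FL to SETD2 C in batch 2, while BEX1 and DECR1 stay near the dotted line.

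The libraries labelled KO in batch 2 also had low levels of the 3 genes. SPARC was 0.69 and 0.92 TPM there, BEX1 was 0.05 TPM and listed at 0, and DECR1 was listed at 0 and 0.07 TPM. Since the tables were normalized separately, these levels are set beside those of batch 1 without a test.

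SPARC was higher with both SETD2 constructs than in KO. It was 0.69 and 0.92 TPM in KO, 2.61 and 2.20 TPM with SETD2 FL, and 7.87 TPM in both libraries with SETD2 C. SPARC was at 0.5 TPM or more in every library of the batch. With SETD2 FL it was 2.95 times its level in KO by the ratio of scaled means, and higher by 1.15 on the log2 scale (SE 0.14, 95% interval 0.82 to 1.49, adjusted p = 0.0370). This call was close to the threshold, since it was lost under 9 of 13 alternative settings, including the removal of any 1 of the 4 libraries, where the adjusted p was 0.0928 to 0.166. The background was small: 12 of 15929 genes (0.0753%) were called higher with SETD2 FL and 1 (0.00628%) was called lower.

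The increase of SPARC with SETD2 C was larger. Its ratio of scaled means to KO was 8.82, and the difference was 2.57 on the log2 scale (SE 0.14, 95% interval 2.23 to 2.90, adjusted p = 3.21e-05). By this difference SPARC ranked 10 of the 15929 genes tested, with SETD2 itself at rank 1. The level with SETD2 C also exceeded that with SETD2 FL, by 1.41 on the log2 scale (SE 0.14, 95% interval 1.08 to 1.75, adjusted p = 0.000462), with a ratio of 2.99. Both calls held in 13 of 13 alternative settings. These calls stand against a wider response: 597 genes (3.75%) were called higher and 50 (0.314%) lower with SETD2 C than in KO, and 536 (3.36%) were called higher and 67 (0.421%) lower in the comparison of SETD2 C with SETD2 FL. With quantile normalization these splits were 342 higher and 130 lower, and 337 higher and 125 lower. Without scaling between libraries the median over all genes moved to 0.18 for SETD2 C against KO, 0.16 for SETD2 C against SETD2 FL and −0.11 for WT against KO, shifts far smaller than those of SPARC.

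Even with SETD2 C, SPARC at 7.87 TPM was below the 35.77 and 43.53 TPM of the WT libraries. The tables were normalized separately and no WT library was in batch 2, so this distance was not tested. The level of SETD2 RNA moved with that of SPARC, from about 12 TPM in KO to 431 ± 12.2 TPM (SD, n = 2) with SETD2 FL and 1297 ± 45.8 TPM (SD, n = 2) with SETD2 C, and its part in the result was not tested.

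BEX1 stayed near 0 in every library of batch 2. It was 0.05 TPM and listed at 0 in KO, 0.09 and 0.20 TPM with SETD2 FL, and 0.10 and 0.07 TPM with SETD2 C. The highest of these values is far below the 14.58 TPM of the lower WT library in batch 1. BEX1 was under the TPM filter in this batch and was therefore tested in the fit without the filter. It differed from KO by 0.30 on the log2 scale with SETD2 FL (SE 0.10, 95% interval 0.04 to 0.55, adjusted p = 0.386) and by 0.14 with SETD2 C (SE 0.10, 95% interval −0.12 to 0.40, adjusted p = 0.387). The difference between SETD2 C and SETD2 FL was −0.16 (SE 0.10, 95% interval −0.41 to 0.10, adjusted p = 0.355). None of the 3 comparisons passed the threshold for BEX1, and the upper limits of the intervals lie below the fold limit of 2 on this scale, which the added 0.5 compresses at such low levels.

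DECR1 also stayed near 0. It was listed at 0 and 0.07 TPM in KO, listed at 0 in both libraries with SETD2 FL, and 0.27 and 0.15 TPM with SETD2 C. Both values with SETD2 C were far below the 13.88 TPM of the lower WT library in batch 1. In the fit without the filter, the difference from KO was −0.10 with SETD2 FL (SE 0.11, 95% interval −0.37 to 0.17, adjusted p = 0.778) and 0.38 with SETD2 C (SE 0.11, 95% interval 0.11 to 0.65, adjusted p = 0.0678). Between SETD2 C and SETD2 FL it was 0.47 (SE 0.11, 95% interval 0.20 to 0.74, adjusted p = 0.0367), which is under the fold limit. With an added value of 0.1 in place of 0.5 this last difference became 1.54 (adjusted p = 0.0331) and would be called, so it depends on a constant that is larger than the TPM values themselves.

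**Figure D2:**
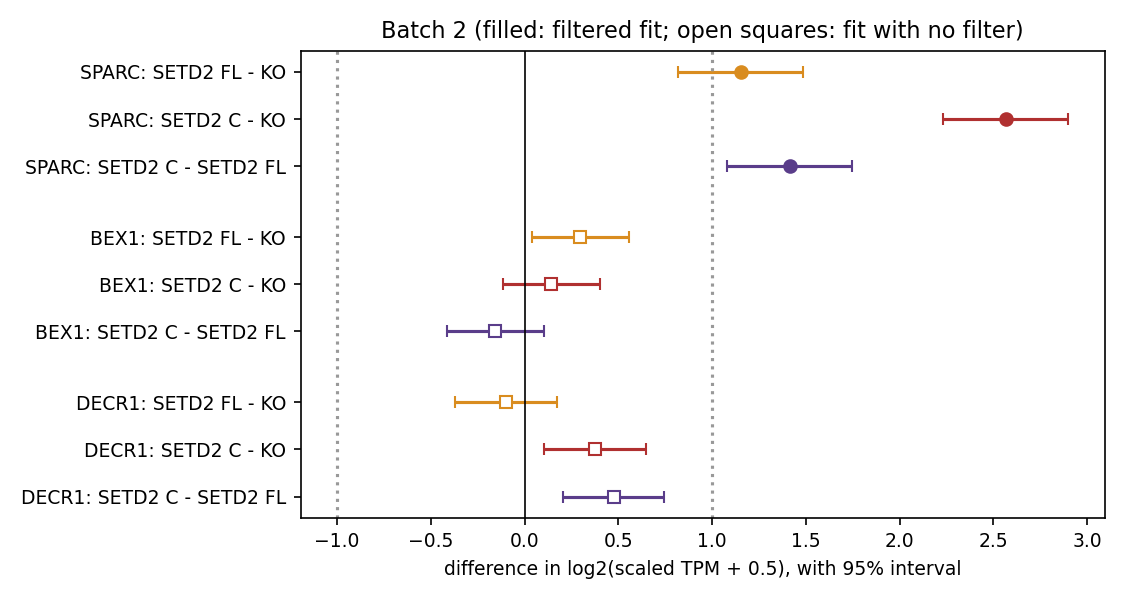
Differences between groups of batch 2 for SPARC, BEX1 and DECR1 in log2(scaled TPM + 0.5), with 95% intervals from the fit over 6 libraries, 2 in each group. Filled circles come from the filtered fit and open squares from the fit without a filter on low TPM, and dotted lines mark a fold change of 2. The 3 SPARC intervals lie above 0, with centres at 1.15, 2.57 and 1.41, while the centres of BEX1 and DECR1 lie between −0.16 and 0.47.

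No other tested gene of the SPARC family was called higher in WT than in KO. Of the 7 other family genes 5 were tested in batch 1, and 1 was called lower in WT. Over all genes 1.02% were called higher and 0.339% lower in WT. The family gene called lower was SPOCK3, which encodes a testican proteoglycan. It was 1.27 and 1.41 TPM in WT and 5.03 and 4.44 TPM in KO, a difference of −1.40 (SE 0.13, adjusted p = 0.00358). SPOCK1, another testican, differed by −0.93 (SE 0.18, adjusted p = 0.0436), under the fold limit. SMOC1, a secreted calcium-binding protein of basement membranes, differed by 0.33 (adjusted p = 0.0594), FSTL1 by 0.01 (adjusted p = 0.942) and SPOCK2 by 0.01 (adjusted p = 0.987). SPARCL1, the closest relative of SPARC, was at most 0.36 TPM in any library and SMOC2 at most 0.04 TPM. In batch 2, SMOC1 fell with SETD2 C while SPARC rose, although without scaling SMOC1 was under the fold limit (−0.93). It was 20.71 and 22.30 TPM in KO, 24.85 and 21.31 TPM with SETD2 FL and 11.34 and 10.78 TPM with SETD2 C, a difference from KO of −1.07 (SE 0.10, adjusted p = 0.000359). None of the 4 family genes tested there was called between SETD2 FL and KO, beside 0.0753% of all genes called higher and 0.00628% lower.

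Among 15 other matricellular genes, 0 of the 5 tested were called between WT and KO, beside 1.02% of all genes called higher and 0.339% lower in WT. With SETD2 C, 2 of 6 tested were called higher than in KO and none lower, beside 3.75% and 0.314% of all genes. CCN2, or connective tissue growth factor, rose from 1.59 and 1.81 TPM in KO to 5.00 and 4.69 TPM, a difference of 1.16 (SE 0.12, adjusted p = 0.000581). CCN3 rose from 0.16 and 0.19 TPM to 1.58 and 1.25 TPM, a difference of 1.42. It was 0.34 and 0.21 TPM with SETD2 FL, so it passed the filter only through the libraries with SETD2 C. Its difference and the count of 2 of 6 are therefore a description without a test. CCN2 was under the fold limit with quantile normalization (0.94) and CCN3 with a pseudocount of 1 (0.97). Of the 10 genes listed as partners of SPARC, among them collagens and the collagen chaperone SERPINH1, 6 were tested in batch 1 and 8 in batch 2, and none was called in any of the 4 comparisons. Over all genes, at most 3.75% were called in 1 direction in any of these comparisons. The median difference between SETD2 C and KO was 0.56 for the partners and 0.05 for all genes tested. STAB1, 1 of the 8 partners, was at most 0.08 TPM in KO and passed the filter only through libraries with a construct. The median of the partners is therefore a description without a test.

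Fibroblasts are rich in SPARC, so markers of other cell types were read beside it. The summed TPM of 6 fibroblast markers was 7.67 to 8.70 in WT and 11.05 to 11.09 in KO of batch 1, the opposite order to SPARC. COL1A1 set this order, while 2 of the 3 tested markers, COL3A1 at 0.45 and LUM at 0.35 on the log2 scale, had higher values in WT as SPARC did, and the median of the 3 was 0.35 beside 0.01 for all genes tested. None of the 3 was called between WT and KO. In batch 2 the sum was 8.12 to 8.29 in KO, 9.46 to 11.2 with SETD2 FL and 14.13 to 16.25 with SETD2 C, in the order of SPARC, with 1 of 3 tested markers, LUM, called higher with SETD2 C than in KO, beside 3.75% of all genes. COL1A1 made up most of each sum, COL1A2 was at most 0.01 TPM and DCN at most 0.43 TPM in any library. The sum of 4 endothelial markers was at most 0.64 and that of 4 leukocyte markers 2.62 to 8.43, with PTPRC at most 0.02 TPM. Of the 2 leukocyte markers tested CD68, a lysosomal protein, was called lower in WT than in KO (−1.59) and higher with SETD2 C than in KO (1.31). The sum of 4 muscle and neuron markers was 1.79 to 4.49, and DES was called higher with SETD2 C than in KO (1.07). Of 9 genes known from HEK293T cells, PAX8 was at most 0.07 TPM, and the sum was 744 to 871 in WT, 1024 to 1071 and 1089 to 1091 in KO of the first and second batch, 919 to 1047 with SETD2 FL and 1560 to 1638 with SETD2 C, where 3 of 8 tested were called higher than in KO, beside 3.75% of all genes. The part of these markers in the SPARC result was not tested.

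Of the other BEX genes, BEX2, BEX3 and BEX4 were not called between WT and KO, and BEX5 was called higher in KO. BEX2, its closest paralogue, was 112.24 and 128.16 TPM in WT and 108.24 and 112.58 TPM in KO, a difference of 0.25 (SE 0.07, adjusted p = 0.0972). BEX3 differed by 0.03 (adjusted p = 0.866) and BEX4 by −0.10 (adjusted p = 0.477), both at more than 100 TPM in every library. BEX5 had the opposite direction, from 7.91 and 6.77 TPM in WT to 16.35 and 20.01 TPM in KO, a difference of −1.12 (SE 0.17, adjusted p = 0.0203). This call was lost without WT 2 (−0.90) and without KO 2 (−0.97). Because BEX1 and BEX2 are close in sequence, reads that match both are divided between them by estimation, so their separate levels are less certain than those of a gene without a close copy.

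The TCEAL genes, which encode proteins related to a transcription elongation factor and lie in the same cluster, held 1 gene with the direction of BEX1. TCEAL3 was 3.81 and 3.84 TPM in WT and 0.50 and 0.56 TPM in KO, a difference of 2.16 (SE 0.15, adjusted p = 0.00126). In batch 2 its values were 0.42 and 0.27 TPM in KO, 0.38 and 0.31 TPM with SETD2 FL and 0.48 and 0.72 TPM with SETD2 C, too low for the filter. Of the 13 BEX and TCEAL genes other than BEX1, 9 were tested in batch 1, with 1 called higher and 1 lower in WT, beside 1.02% and 0.339% of all genes. TCEAL7 was low in batch 1 and not tested there, but rose in batch 2 from 0.39 and 0.59 TPM in KO to 5.30 and 6.25 TPM with SETD2 C, a difference of 2.55 (SE 0.17, adjusted p = 7.95e-05). Among 9 ARMCX and GPRASP genes of the same X region 5 were tested, and GPRASP2, a sorting protein for receptors, was called higher in WT, at 11.45 and 13.66 TPM against 5.90 and 6.73 TPM, a difference of 1.06 (SE 0.10, adjusted p = 0.00461). Without KO 1 it was 0.96, under the fold limit. A noncoding gene named ARMCX5-GPRASP2 (ENSG00000271147), whose annotated span overlaps GPRASP2, was also called higher in WT, at 7.93 and 10.3 TPM against 4.68 and 4.47 TPM, a difference of 1.03 (SE 0.10, adjusted p = 0.00467), which was 0.97 without WT 2. Reads that match both genes are divided by estimation.

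No other enzyme of the fatty acid lists was called with DECR1. DECR2, the peroxisomal counterpart, was 8.71 and 9.01 TPM in WT and 6.52 and 7.15 TPM in KO, a difference of 0.48 (SE 0.11, adjusted p = 0.0651). The enoyl-CoA isomerases ECI1 and ECI2 differed by 0.21 and 0.04, and the dienoyl-CoA isomerase ECH1 differed by −0.11, with adjusted p of 0.126, 0.780 and 0.475. None of these 4 auxiliary enzymes was called in any of the 4 comparisons. Of them ECI1 had the largest difference in batch 2, −0.67 with SETD2 C against KO (SE 0.05, adjusted p = 0.000149), under the fold limit. All 17 genes of mitochondrial fatty acid oxidation and all 10 of peroxisomal fatty acid oxidation were tested in both tables, and 0 of them were called in any comparison. Calls were rare among all genes too, so few would fall in lists of this size. Between WT and KO 1.02% were called higher and 0.339% lower in WT, and with SETD2 C 3.75% were higher and 0.314% lower than in KO. Their median differences between WT and KO were 0.03 and −0.10, beside 0.01 for all genes tested.

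Genes next to the members were for the most part not called, as was the case for all genes, of which 1.02% were called higher and 0.339% lower in WT. Of the 10 protein-coding genes nearest to SPARC, 5 on each side, 4 were tested in batch 1 and 0 were called, with differences from −0.15 to 0.20. The nearest before SPARC by coordinate, FAT2, was at most 0.01 TPM in WT and KO, and the nearest after it, the copper chaperone ATOX1, differed by 0.13. Around BEX1, 6 of 10 neighbours were tested and GPRASP2 was called. The other 5 ranged from −0.11 to 0.45, the latter for a protein-coding gene also named ARMCX5-GPRASP2 (ENSG00000286237), and the nearest on each side, RAB40AL and NXF3, were too low to be tested. Around DECR1, 7 of 10 were tested and 0 were called, with differences from −0.69 for MMP16 to 0.17. DECR1 spans chr8:90001405-90053633 on the plus strand, with 10 exons in its canonical transcript. The annotated span of NBN, a DNA repair gene at chr8:89924515-90003228, overlaps its start, and NBN was 18.7 TPM in WT and 21.2 TPM in KO on average, a difference of −0.06. Strand was not given for the counting in the sources used here, so reads in that overlap cannot be told apart. CALB1, the nearest gene after DECR1, was too low to be tested.

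**Figure D3:**
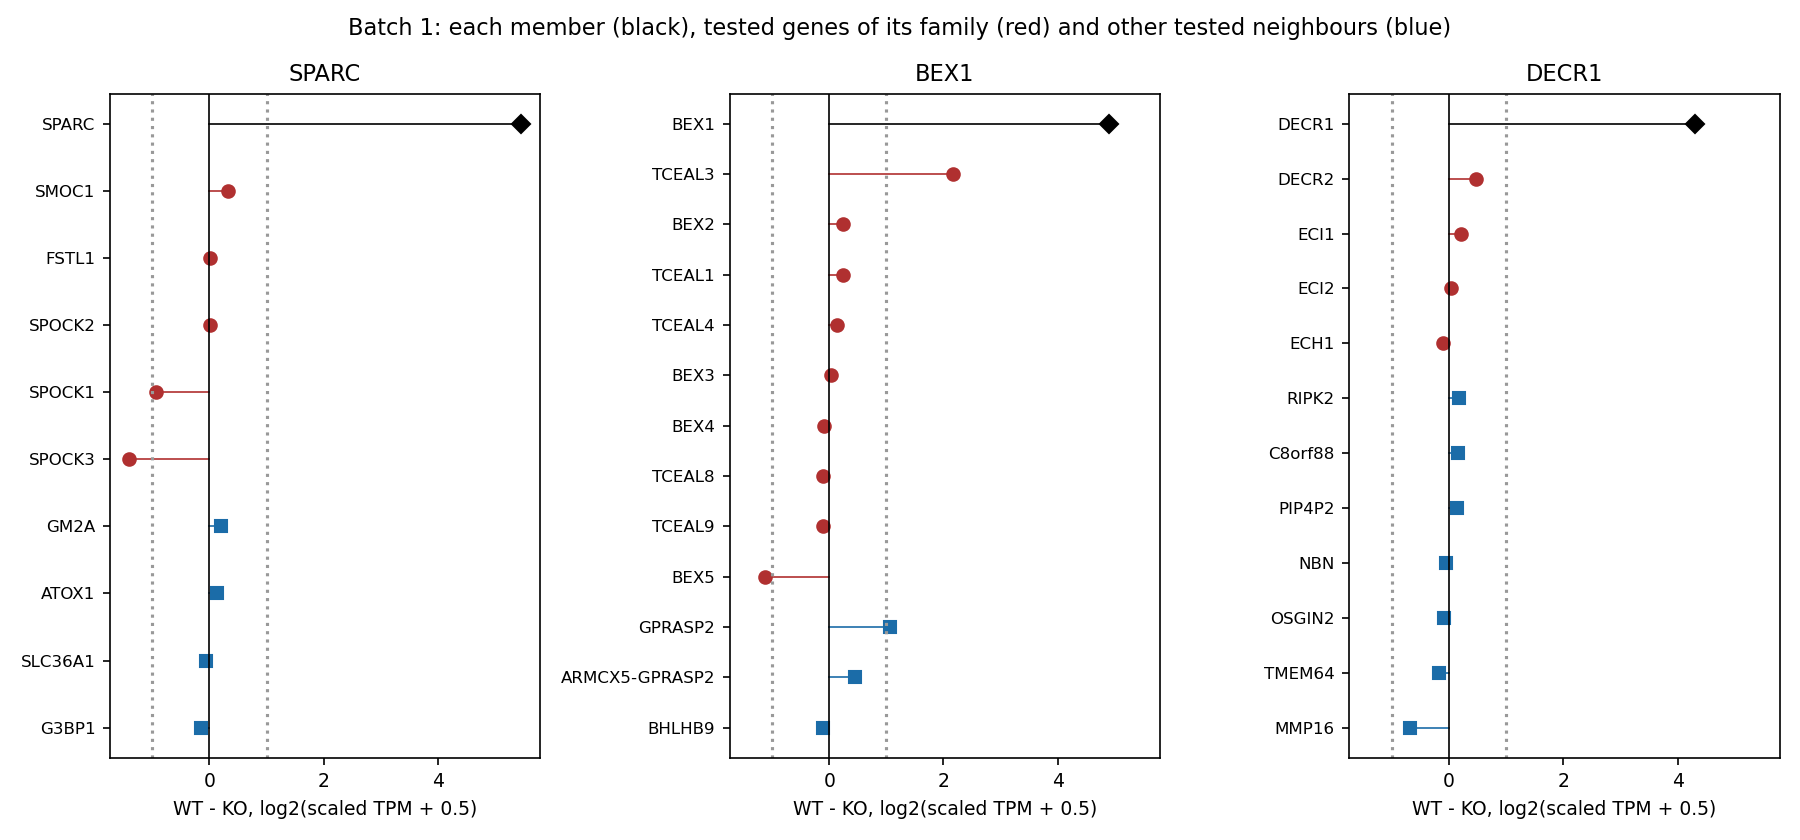
Difference between WT and KO in batch 1 in log2(scaled TPM + 0.5) for SPARC, BEX1 and DECR1 (black diamonds), for tested genes of the same family or enzyme group (red circles) and for other tested genes among the 10 nearest (blue squares). Dotted lines mark a fold change of 2, and the members, which were selected on this difference, lie at 5.45, 4.90 and 4.30, beyond every relative and neighbour plotted.

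The genes most like each member were sought over all 10 libraries, among genes that passed the filter in both batches. Genes below the filter in batch 2, with GYPC, CYBA, BEX1 and DECR1 among them, were not candidates. The names below are thus the closest only among genes expressed above the filter there. Likeness was the root-mean-square distance between values of log2(scaled TPM + 0.5) taken relative to the KO mean of the same table. The distance includes the WT and KO libraries of batch 1, whose difference chose the members. Genes with a large difference there are favoured, so the names are a description and add no support. For SPARC, 14529 genes were compared and the closest were PNPLA4, a lipase, at a distance of 1.33, then MAGEH1, LINC01535, ZNF83 and AC092329.4, at up to 1.49. PNPLA4 was 15.83 and 17.63 TPM in WT and 2.05 and 2.35 TPM in KO, and in batch 2 it was 0.71 and 0.91 TPM in KO, 1.38 and 2.02 TPM with SETD2 FL and 3.45 and 2.72 TPM with SETD2 C. For BEX1 the closest were MAGEH1, at 0.79, ABHD14A, ABCB6, CPS1 and ZNF100, at up to 1.09. For DECR1 they were MAGEH1, at 0.54, ABHD14A, ZNF100, ABCB6 and PNPLA4, at up to 0.89. MAGEH1, a member of the MAGE family, was thus among the 5 closest of the genes compared for each member. It was 7.85 and 8.05 TPM in WT, 0.53 and 0.38 TPM in KO, and at most 0.97 TPM in batch 2. There MAGEH1 passed the filter only through the libraries with SETD2 C, at 0.81 and 0.97 TPM. When likeness was measured by Pearson r instead, 1 of the 5 closest genes was shared for each member, so these names depend on the measure.

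The levels in batch 2 were then read for all genes that were low in KO. Of the 150 genes called lower in KO in batch 1, 108 were tested in batch 2 and 42, among them BEX1 and DECR1, were below the filter. SPARC was the one gene of the 108 (0.926%) called higher with SETD2 FL, the call near the threshold described above. Over all genes tested that share was 0.0753%. With SETD2 C, 36 of the 108 genes (33.3%), SPARC among them, were called higher, beside 3.75% of all genes tested. These 36 were 6.03% of all genes called higher with SETD2 C, and SPARC was 8.33% of the 12 called higher with SETD2 FL. By the difference between SETD2 C and KO, SPARC had rank 1 of the 108 genes, the next being AC124067.2 at 2.27. The median over the 108 genes was 0.67 for SETD2 C against KO and 0.14 for SETD2 FL against KO. A gene low in KO could pass the filter of batch 2 through the libraries where it was high, so these shares are a description. Among the 78 of the 108 genes with at least 0.5 TPM in both KO libraries of batch 2, SPARC included, 23 (29.5%) were called higher with SETD2 C, beside 366 of all 14392 such genes (2.54%). The 2 sets were not matched for level, so these shares too are a description.

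**Figure D4:**
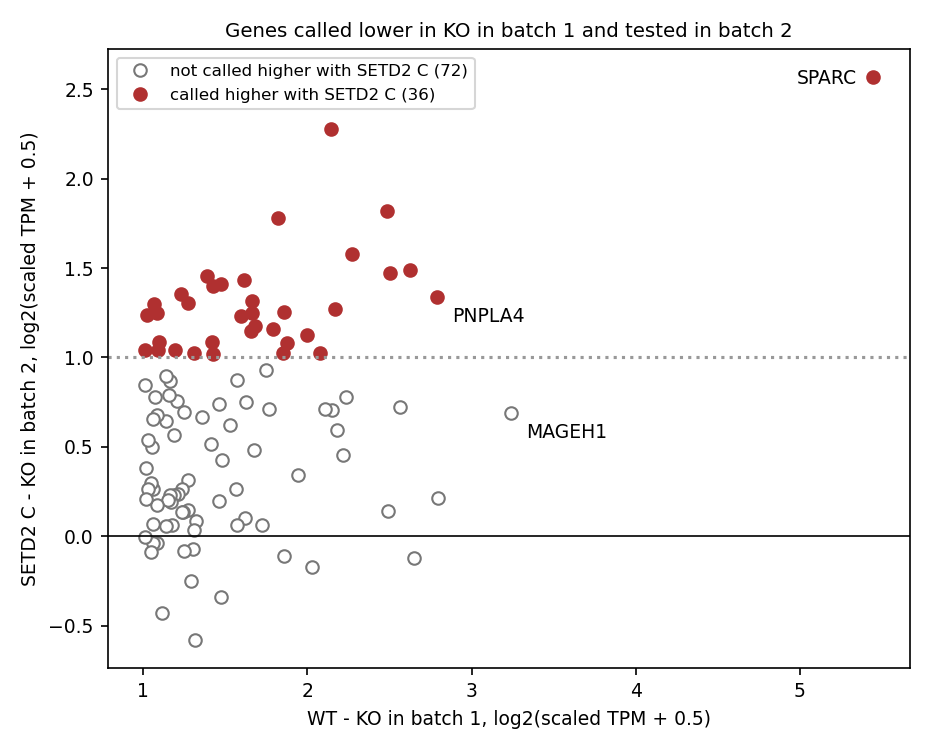
Genes called lower in KO in batch 1 and tested in batch 2 (108 genes). The horizontal axis is the difference between WT and KO in batch 1 and the vertical axis that between SETD2 C and KO in batch 2, both in log2(scaled TPM + 0.5); red points are the 36 genes called higher with SETD2 C, and SPARC lies at the upper right at 5.45 and 2.57.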

How the data were processed

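TPM from 10 RNA-seq libraries of HEK293T cells was analysed, 4 in the table of batch 1 and 6 in that of batch 2. Reads were aligned by the authors to hg38 with Ensembl gene models using STAR 2.6.1c, and TPM per gene from RSEM 1.3.0 was deposited without normalization between libraries. TPM holds no depth, and a rise in a few genes lowers the others. The authors' count-based tests and the ChIP-seq samples were not used here.

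TPM was divided by the library's median ratio to geometric means, taken over protein-coding and lncRNA genes that reached 1 TPM in all libraries. These factors were 0.879 to 1.06 in batch 1 and 0.956 to 1.07 in batch 2. Genes of those types in GENCODE 44 that reached 0.5 TPM in 2 or more libraries were tested in limma 3.58.1 (R 4.3.3, eBayes with trend) on log2(scaled TPM + 0.5), 14741 in batch 1 and 15929 in batch 2, whose 6 libraries shared one fit. Of the genes listed, 58472 matched the annotation by identifier and 18 by symbol, and 394 had no match. Calls needed a 2-fold change and a p of no more than 0.05 after Benjamini-Hochberg adjustment. An exact permutation test of 2 against 2 libraries cannot go below 0.333. BEX1 and DECR1 did not pass the filter in batch 2 and were tested in the planned fit of genes with a TPM above 0 in at least 1 library. The procedure was checked on simulated data.

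The 3 genes, the gene lists and the markers were chosen with earlier results of these data known. Genes named were the members, SETD2, every gene of the lists called in any comparison, the SPARC family, BEX genes and unsaturated fatty acid enzymes in any case, the nearest and any called gene among 5 neighbours on each side, and the 5 genes most like each member. GYPC, CYBA, AC124067.2, MMP16, SERPINH1, STAB1, ARMCX5-GPRASP2 and the marker genes given by level were named after their values were seen. Alternatives were pseudocounts of 0.1 and 1, other filters, no scaling, quantile normalization, TPM rescaled without mitochondrially encoded genes and SETD2, all gene types, no trend, only the groups compared, the adjusted p alone, a replicate block in batch 1 and each library left out. Python 3.11.15 was used for tables and plots.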

Additional observations from a re-analysis of the deposited data

Results flagged for a closer look

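SETD2 C differed from SETD2 FL at the limits used for calls for 10 of the genes named, 1 member, 4 genes of the lists and 5 others. Both constructs share the KO libraries, so the comparison of the 2 constructs is that of their effects. Over all genes, 536 (3.36%) were called higher and 67 (0.421%) lower with SETD2 C than with SETD2 FL. SPARC had a difference between SETD2 C and SETD2 FL of 1.41 on the log2 scale, higher with SETD2 C (adjusted p = 0.000462). SMOC1 of the same family was lower with SETD2 C, by −1.15 (adjusted p = 0.000233). The matricellular genes CCN2 and CCN3 were higher with SETD2 C by 1.08 (adjusted p = 0.000641) and 1.22. Both were under the fold limit with quantile normalization (0.89 and 0.93) and with a pseudocount of 1 (0.94 and 0.86). CCN3 passed the filter only through the libraries with SETD2 C, so its difference is a description without a test. TCEAL7 of the BEX and TCEAL cluster was higher with SETD2 C by 2.64 (adjusted p = 5.99e-05). SETD2 itself was higher by 1.46 (adjusted p = 7.09e-06). AC124067.2 was higher by 1.83, AC092329.4 by 1.67, LINC01535 by 1.55 and ZNF83 by 1.14. These 4 genes were named in part from their values in the same libraries, so their differences are a description without a test. AC092329.4 and ZNF83 also passed the filter only because of the libraries with SETD2 C. ZNF83 was under the fold limit with quantile normalization (0.86) and with a pseudocount of 1 (0.84). SETD2, AC124067.2, AC092329.4 and LINC01535 kept their calls in every alternative run. For each of the 10 genes the 2 libraries with SETD2 C lay on 1 side of the 2 libraries with SETD2 FL. Their listing by a call in this comparison all but ensures that, so it adds no support.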

How the results depend on the processing

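No count or depth was available to set a limit on BEX1 and DECR1 in batch 2. The increase of SPARC with SETD2 C over KO was 2.19 to 3.01 on the log2 scale and over SETD2 FL 1.28 to 1.55 under 13 alternatives, and both calls held in each. Its increase with SETD2 FL kept its direction in 13 but lost its call with a pseudocount of 1 (0.92, adjusted p = 0.0421, under the fold limit), without the filter (1.15, adjusted p = 0.222), with all gene types (1.15, adjusted p = 0.0751), without the trend (1.15, adjusted p = 0.105), with only the 2 groups compared (1.14, adjusted p = 0.0799) and with any 1 of the 4 libraries left out (1.02 to 1.29). Under the stricter filter SPARC was not tested in either table. The cause was not tested. For BEX1 no alternative gave a call in batch 2, and for DECR1 1 did, SETD2 C against SETD2 FL with a pseudocount of 0.1 and no filter (1.54). Without KO 4, DECR1 was listed at 0 in all KO and SETD2 FL libraries and its difference was 0. The members' WT against KO differences ranged from 4.86 to 6.22 for SPARC, 4.03 to 6.71 for BEX1 and 3.64 to 5.32 for DECR1, mainly with the pseudocount.

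The number of calls was 200 between WT and KO, and 661 by the adjusted p alone, 128 with a pseudocount of 1, 83 with the stricter filter, 73 without a filter and 122 (without KO 2) to 214 with a library left out. For SETD2 FL against KO it was 13, and in the same order 33, 7, 6, 3 and 2 to 6 (3 without KO 2, 2 without KO 4, 4 without SETD2 FL 3, 6 without SETD2 FL 4), with 21 without scaling and 6 with all gene types. For SETD2 C against KO it was 647, and 5761 by the adjusted p alone, 1079 and 373 with pseudocounts of 0.1 and 1, 301 with the stricter filter and 518 to 703 with a library left out. For SETD2 C against SETD2 FL it was 603, and in the same order 6083, 956, 362, 308 and 495 to 666.

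The alternatives to the count of KO-lowered genes raised in batch 2, other than the adjusted p alone, were chosen after seeing the data. With SETD2 FL it was 1, and 2 by the adjusted p alone and without scaling. It was 0 with a pseudocount of 1, either other filter, all gene types, no trend and only the 2 groups compared, and 0 to 1 with a library left out. With SETD2 C it was 36, and 168 by the adjusted p alone, 14 with a pseudocount of 1, 12 with the stricter filter, 11 without a filter, 16 with quantile normalization and 24 to 36 with a library left out. By Pearson r, 1 of the 5 genes most like SPARC, BEX1 and DECR1 was shared with the main measure. A replicate block of WT and KO libraries with the same number gave 213 calls against 200. Deviations of same-numbered libraries correlated at 0.147 across genes, with 2 pairs and no label that ties them. In batch 2, no paired analysis was possible because the groups share fewer than 2 replicate numbers. Among the called genes of the lists and 6 others, the calls between WT and KO were lost for BEX5 in 4 of 14 alternatives, GPRASP2 in 3 of 14 and SPOCK3 in 1 of 14, and for the noncoding ARMCX5-GPRASP2 gene in 5 of 14. Calls of SETD2 C against KO were lost for CCN2 in 1 of 14, CCN3 in 1 of 11 and SMOC1 in 1 of 14, and those against SETD2 FL for CCN2 in 2 of 14, CCN3 in 2 of 11 and ZNF83 in 2 of 13.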
